A study of Homo sapiens with 4 samples.

Results

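Circular RNAs made from DNA replication and DNA repair genes were measured in human embryonic kidney cells with and without reduced DIS3, a ribonuclease of the RNA exosome. A circular RNA arises by backsplicing, in which the end of a downstream exon is joined to the start of an upstream one, and it is recognised in sequencing by reads across that backsplice junction. Members were chosen by the symbol of the host gene: the MCM, ORC, RFC, POL, RAD, FANC, BRCA, XRCC, MSH, MLH, LIG, ERCC, SMC, TOP, PARP and REV families, together with ATM, BLM, WRN, BRIP1, PALB2, PDS5A, PDS5B, STAG1, STAG2, NIPBL, CDC6 and TIMELESS. The rule took 1153 of the 45182 circles listed, from 112 of 8230 host symbols, and it used no measured value.

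The study compared 2 control libraries with 2 DIS3 knockdown (KD) libraries of Flp-In T-REx 293, a HEK293 derivative carrying a recombination site for inducible transgenes. All 4 libraries came from cells with an integrated Flag-HA DIS3 transgene. The KD cells were a single clone, clone 8, in which endogenous DIS3 had been disrupted by CRISPR, and the columns are marked as without doxycycline, the inducer of such transgenes. Per the series text some DIS3 remained in these uninduced cells. All cells grew in medium with 10% fetal bovine serum, 15 µg/ml blasticidin and 150 µg/ml hygromycin B. Total RNA was depleted of ribosomal RNA and made into strand-marking libraries. The labels call the 2 libraries of each group biological replicates. With 1 KD clone, DIS3 depletion and other properties of that clone cannot be told apart.

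Replication begins when the origin recognition complex (ORC) and CDC6 load the MCM helicase onto DNA, after which the replicative polymerases copy both strands behind the opening fork. Cohesin, a ring built on SMC proteins, holds the new sister chromatids together. Errors and lesions are handled by mismatch repair, excision repair, end joining, the Fanconi anaemia pathway and homologous recombination, with ATM among the kinases that signal breaks. Many of these genes are most active in dividing cells, and several have long multi-exon transcripts.

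Circle abundance is given as FPBcirc, the number of backsplice fragments per gigabase mapped, here written FPB. A backsplice is 1 junction whatever the length of the gene, so FPB needs no length correction. The files also give CIRCscore, the ratio of a circle's FPB to the linear splicing signal of its host, from which the linear host signal (FPBlinear) was recovered. In all, 4 tests were run with limma across all features: FPB per circle, FPB summed per host, FPBlinear per host, and CIRCscore per circle. A result passed when its Benjamini-Hochberg adjusted p, two-sided, was under 0.05. Values below are in the order control 1, control 2, KD 1, KD 2, and fold changes are KD relative to control on the log2(value + pseudocount) scale with their SE. With 2 libraries against 2, the smallest p that exact permutation of single values allows is 0.333.

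Depth differed widely: 19.6, 20.4, 165 and 47.9 gigabases mapped, with 48895, 55193, 352471 and 121507 backsplice reads. One read was worth 0.0511, 0.0489, 0.00604 and 0.0209 FPB. No reads across a circle in either control limits its mean there to 0.0750 FPB, the value of 3 reads over both controls. Libraries carried no molecular identifiers, so such limits cover counting error only. DIS3 itself had 2 circles with 0, 0, 7 and 2 reads, and its linear signal exists only where a circle was read, at 11.7 and 15.9 FPB in the KD libraries, so these tables do not check the knockdown. Of 18 embryonic kidney line markers looked up, 5 were hosts in the tables, and EPCAM and EYA1 had linear values in all 4 libraries. EPCAM measured 13.5, 14.8, 9.25 and 11.6 FPB and EYA1 0.869, 0.653, 0.627 and 0.809 FPB. The other 3 hosts, VIM, CDH2 and PAX2, had no circle reads in controls and so no linear values there. VIM had 0, 0, 9 and 1 circle reads, with linear values of 354 and 401 FPB in the KD libraries. CDH2 had 0, 0, 13 and 4 reads, with 13.2 and 15.1 FPB in KD. PAX2 had 0, 0, 2 and 0 reads, with 4.23 FPB in KD 1. For these 3 genes the linear values do not compare the groups.

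Replication and repair circles made up a small and similar part of all circular RNA in the 4 libraries. They gave 1010, 1019, 5678 and 2171 backsplice reads, which was 2.07%, 1.85%, 1.61% and 1.79% of each library. Their summed abundance was 51.7, 49.8, 34.3 and 45.3 FPB, or 50.8 ± 1.27 in controls and 39.8 ± 7.77 in KD (SD, n = 2), a ratio of 0.785 (exact permutation p = 0.333). Both KD libraries lay below both controls, and KD 1, the deepest library, was the lowest. The sum over all circles was 2500, 2700, 2130 and 2536 FPB, where the groups overlapped. In bulk RNA, fewer cells making a transcript and less of it per cell cannot be told apart.

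The 42 circles abundant enough to test summed to 23.9, 24.5, 13 and 16.9 FPB, and the 1111 others to 27.8, 25.3, 21.3 and 28.4 FPB. Abundance was judged by the mean over all 4 libraries, so circles that are high in the controls alone entered the first sum, and the split is given as a description. More different member circles were read in the deeper KD libraries, at 239, 226, 793 and 521. With every library brought to the depth of the shallowest, the KD counts stayed higher by much less, at 239, 223, 308 and 354. Over all circles the same step gave 8357, 8475, 13652 and 13810. Of the 1153, 56 (4.86%) were read in all 4 libraries against 5.79% of all circles, and 765 (66.3%) only in KD against 69.6%. Single reads accounted for 296 members (25.7%).

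Cohesin and Fanconi or recombination genes carried the most circle signal, as the plot of summed abundance by functional group shows. Cohesin and SMC genes summed to 12.2, 9.25, 5.14 and 7.28 FPB over 187 circles, with both KD libraries below both controls. Fanconi and recombination genes summed to 11.8, 11, 7.83 and 10.5 FPB over 260 circles, also lower in both KD libraries. Checkpoint genes (4.19, 3.86, 1.5 and 2.17 FPB) and mismatch repair genes (4.81, 5.28, 2.16 and 3.55 FPB) had the same order of groups. Licensing and helicase genes (5.06, 5.38, 4.45 and 5.68 FPB), replicative polymerases (3.43, 3.96, 3.63 and 3.17 FPB), translesion polymerases (3.43, 3.82, 2.66 and 3.82 FPB), excision and end-joining genes (3.27, 3.08, 3.12 and 4.86 FPB) and topoisomerases (1.84, 1.57, 1.49 and 1.92 FPB) overlapped between groups.

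**Figure D1:**
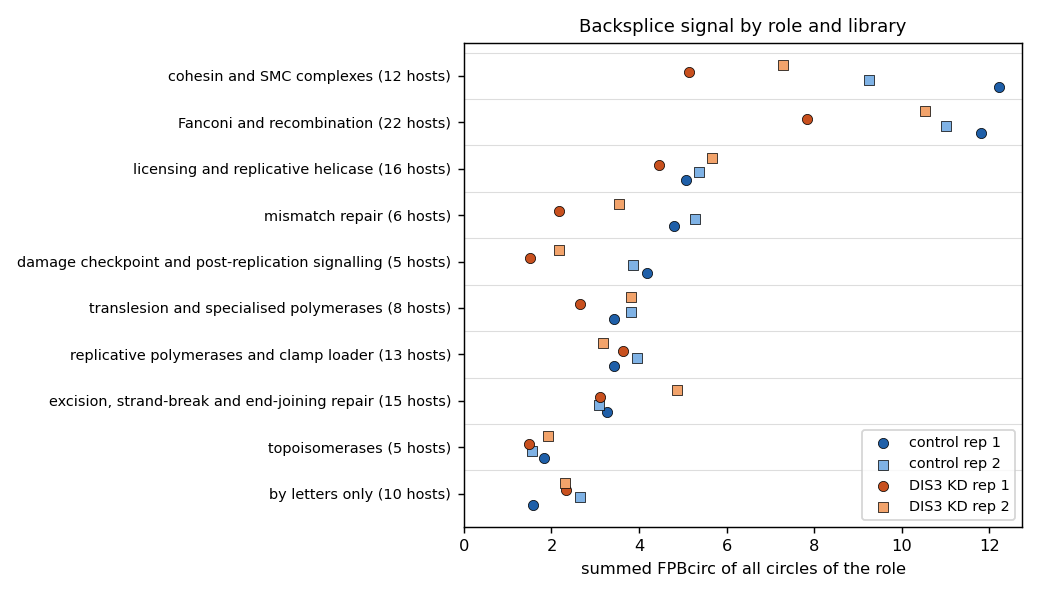
Summed FPBcirc of member circles by functional group (horizontal axis: FPBcirc, backsplice fragments per gigabase mapped) in each of the 4 libraries, as points without error bars. Cohesin and SMC genes stand at 12.2 and 9.25 FPB in controls and 5.14 and 7.28 FPB in KD, while licensing and helicase genes stand at 5.06 and 5.38 FPB in controls and 4.45 and 5.68 FPB in KD.

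The circles of a host were overlapping variants rather than separate units. All 1153 lay inside the RefSeq bounds of their gene, and 1042 (90.4%) shared a backsplice end with another circle of the same gene. The median was 7 circles per host. POLA1, the catalytic subunit of the polymerase that primes DNA synthesis, had the most with 49, followed by ATM with 47, the helicase gene BRIP1 with 46, the end-joining polymerase gene POLQ with 41 and the cohesin regulator PDS5A with 38. In POLA1, 11 circles ended at position 24843677 of chromosome X, and in SMC1A 12 ended at position 53415169. The median member spanned 11207 bases of the genome, introns included, against 9919.5 over all circles.

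At the level of hosts, many of the members could be followed in every library. Circles of 53 of the 112 hosts (47.3%) had linear values in all 4 libraries, against 30.9% of all hosts. Circles of 28 hosts (25.0%) were read only in KD, against 41.9%, and of 1 host only in a control. The median tested change was lower in members than over all features in 3 of the tests: log2 fold changes of -0.66 against -0.33 per circle, -0.46 against -0.06 for summed circles and -0.41 against -0.17 for linear RNA. For CIRCscore the medians were -0.37 and -0.42. The median of all circles depended on the scaling: it was 0.17 with each library centred on its median, 0.10 with edgeR and 0.09 with DESeq2, so the sign of a small change per circle depended on it too.

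Few circles and many linear RNAs passed the test. Of 42 circles tested, from 30 hosts, 1 fell and none rose with limma, where 0.453% of all 2427 tested circles fell and 0.0824% rose. At an unadjusted p under 0.05, 8 members were lower and 2 higher, against 14.0% and 5.11% of all circles. edgeR called none in either direction, and DESeq2 called 2 higher and 2 lower. For circles summed per host, 1 of 52 fell and none rose with limma (background 2.17% lower and 1.38% higher of 2393 hosts), and at an unadjusted p under 0.05 there were 11 lower and 4 higher (background 11.7% and 6.77%); edgeR and DESeq2 called none higher and 1 and 2 lower. Linear RNA fell for 20 and rose for 4 of 53 hosts, where 24.3% of all 2547 hosts fell and 11.3% rose. With each library centred on its median, which moved the median of all hosts from -0.17 to -0.01, 17 members fell and 9 rose. Shares of all features that passed with edgeR, DESeq2 or centring are not given here. CIRCscore passed for none of 34 circles with limma (background 0.11% lower and 0.0% higher of 1823), with 6 lower and 2 higher at an unadjusted p under 0.05 (background 17.9% and 2.96%).

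Both KD libraries lay below both controls for 21 of 42 circles and above them for 2, against 38.4% and 16.2% of all tested circles. For summed circles 24 of 52 hosts were lower and 8 higher, against 30.1% and 21.2%. For linear RNA 36 of 53 were lower and 9 higher, against 45.1% and 25.6%. For CIRCscore 14 of 34 were lower and 4 higher, against 42.6% and 11.6%. All tests share the same 2 control libraries.

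The linear calls depended on which library was left out. Fewer member falls passed without control 1, control 2 or KD 1, and more without KD 2. For example, the log2 fold change of ORC4 was -0.84, -0.77, -0.51 and -1.1 without each of these in turn. That of LIG3 was 0.43, 0.79, 0.63 and 0.58. Shares of all hosts that passed in these fits are not given here. The falls of XRCC4, SMC4, SMC6, MCM8, XRCC5 and MSH3 and the rise of FANCA were kept in all of these fits. The KD libraries differed from each other in one direction: KD 1 was below KD 2 for 45 of 53 members (84.9%) against 80.7% of all hosts, with a median ratio of KD 2 to KD 1 of 1.33 among members and 1.23 over all. The part of that gap in the linear calls was not tested.

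**Figure D2:**
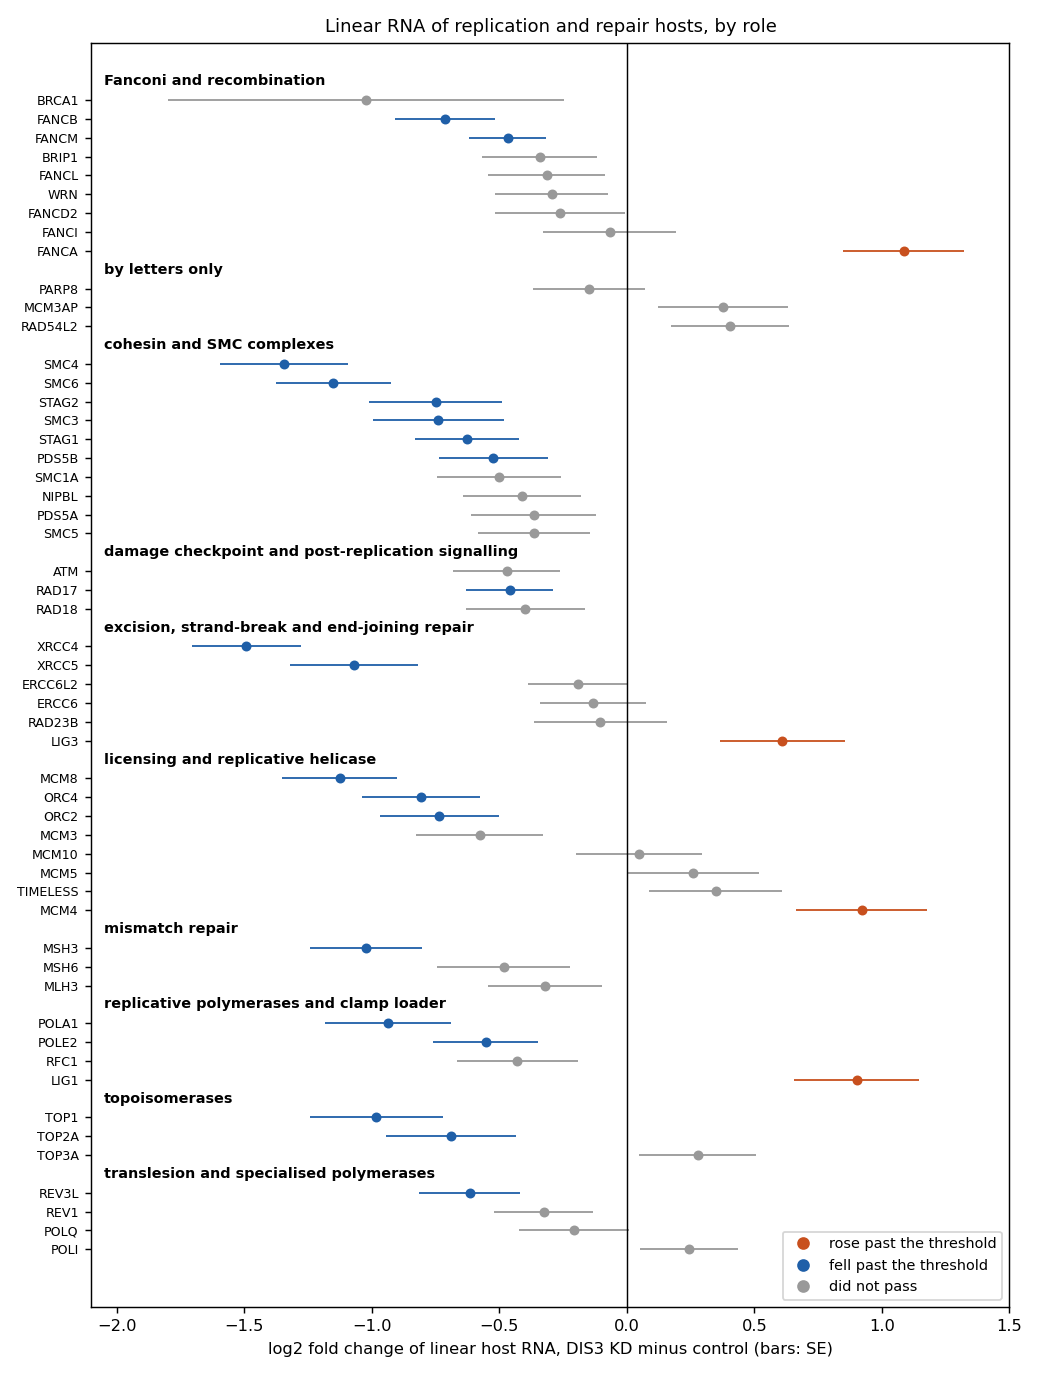
Change of linear host RNA (horizontal axis: log2 fold change of FPBlinear, KD relative to control, with bars of 1 SE) for the 53 member hosts with values in all 4 libraries, grouped by function and coloured by whether the limma test called a rise, a fall or neither. XRCC4 at -1.49 is the lowest and FANCA at 1.09 the highest, and all 10 cohesin and SMC genes lie below 0.

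Promoters are shown for members that differ in direction, because genes of replication are often controlled by E2F factors, whose textbook site lies close to the start of transcription. The letters TTTCCCGC, TTTCGCGC, TTTGCCGC and TTTGGCGC were searched on both strands in the 250 bases before a RefSeq start of each gene (GRCh38.p14). For some genes, RAD52 and ORC1 among them, that window lies inside the gene bounds, and other starts were not searched. A window can hold overlapping matches. At least 1 match was present in 15 of 98 member windows (15.3%) and in 760 of 27305 gene windows (2.78%). The second share covers every gene with a window, whether or not it hosts circles. The share among all circle hosts is not given here. A match was found for 2 of 3 hosts whose linear RNA rose, 4 of 19 whose linear RNA fell (MSH3, POLA1, SMC6 and STAG1), 3 of 26 with neither call and 6 of 50 not tested. The rising host MCM4 and the falling host XRCC5 had no window. A match describes letters and not binding. The 5 windows that follow run 5′ to 3′ on the strand of the gene, with the match in capitals, and are those of the host whose circles fell, of both hosts with a match and a linear rise, and of 2 whose linear RNA fell. They are MCM3 (chr6:52284743-52284992, minus strand), FANCA (chr16:89816648-89816897, minus), LIG1 (chr19:48170345-48170594, minus), SMC6 (chr2:17753811-17754060, minus) and POLA1 (chrX:24693668-24693917, plus).
MCM3: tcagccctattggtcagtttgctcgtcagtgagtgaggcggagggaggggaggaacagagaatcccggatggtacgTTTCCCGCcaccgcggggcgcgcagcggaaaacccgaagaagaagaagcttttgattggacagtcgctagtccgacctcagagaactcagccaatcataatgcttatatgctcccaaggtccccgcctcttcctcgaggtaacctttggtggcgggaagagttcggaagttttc
FANCA: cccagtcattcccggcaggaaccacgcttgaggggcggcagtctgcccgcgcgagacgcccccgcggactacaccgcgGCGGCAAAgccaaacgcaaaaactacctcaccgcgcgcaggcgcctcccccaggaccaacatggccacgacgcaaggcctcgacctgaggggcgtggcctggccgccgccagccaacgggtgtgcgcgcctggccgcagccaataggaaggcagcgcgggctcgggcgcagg
LIG1: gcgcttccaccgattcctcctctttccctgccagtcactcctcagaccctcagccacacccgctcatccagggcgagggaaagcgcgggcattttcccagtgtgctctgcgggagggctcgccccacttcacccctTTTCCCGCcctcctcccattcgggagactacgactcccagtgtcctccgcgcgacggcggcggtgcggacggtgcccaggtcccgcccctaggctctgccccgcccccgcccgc
SMC6: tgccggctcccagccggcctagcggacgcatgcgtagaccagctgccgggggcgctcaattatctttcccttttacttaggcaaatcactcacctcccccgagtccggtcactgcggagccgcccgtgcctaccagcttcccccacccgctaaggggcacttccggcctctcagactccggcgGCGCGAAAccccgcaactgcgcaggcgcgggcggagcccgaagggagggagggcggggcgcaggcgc
POLA1: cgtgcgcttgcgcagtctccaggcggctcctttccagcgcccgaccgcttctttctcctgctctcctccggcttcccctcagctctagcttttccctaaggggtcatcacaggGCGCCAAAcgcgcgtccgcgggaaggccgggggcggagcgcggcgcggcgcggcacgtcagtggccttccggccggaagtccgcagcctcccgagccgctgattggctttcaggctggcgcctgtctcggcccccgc
The matches began 174, 172, 114, 67 and 137 bases before the start in MCM3, FANCA, LIG1, SMC6 and POLA1. They read TTTCCCGC in MCM3 and LIG1, and GCGGCAAA, GCGCGAAA and GCGCCAAA, the reverse complements of listed letters, in FANCA, SMC6 and POLA1.

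Among licensing and helicase genes, a circle of MCM3 was the single member circle that passed. MCM3 encodes a subunit of the replicative helicase. Its most abundant circle, chr6:52267865-52269226 on hg38, spans 1362 bases inside the gene and measured 1.84, 1.47, 0.115 and 0.188 FPB (36, 30, 19 and 9 reads). Both controls were high and both KD libraries low, with no overlap. The mean went from 1.65 ± 0.264 to 0.151 ± 0.0516 FPB (SD, n = 2), 10.9-fold lower, and the circle fell by 3.20 on the log2 scale (SE 0.47, limma adjusted p = 0.0486). That p lay close to the threshold and rose to 0.614 without KD 1 and 0.347 without KD 2, and it was 0.0773 with edgeR, 0.0853 with median centring and 0.0591 at equal depth.

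The 10 MCM3 circles together fell too. They summed to 2.35, 2.05, 0.338 and 0.397 FPB, or 2.2 ± 0.211 against 0.367 ± 0.0411 (SD, n = 2), a fall of 2.48 (SE 0.46, limma adjusted p = 0.00939; 0.509 without KD 1, 0.238 without KD 2). The groups did not overlap. The circle of 1362 bases made up 78.3% and 71.4% of MCM3 circle signal in controls and 33.9% and 47.4% in KD. A second circle from the same start, of 6052 bases, had 7, 0, 16 and 1 reads, and one of 1616 bases had 0, 0, 5 and 4. The linear RNA of MCM3 measured 99.2, 115, 71.4 and 71.2 FPB (log2 fold change -0.58, SE 0.25, limma adjusted p = 0.0565), so the lower value did not pass the test.

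ORC4, a subunit of the origin recognition complex, had 2 circles that share the start at chr2:147972739. The one of 3237 bases had 8, 0, 61 and 30 reads and the one of 9343 bases 0, 9, 69 and 30, so each control held reads of a different circle and both KD libraries held both. Summed, ORC4 circles measured 0.460, 0.440, 0.786 and 1.25 FPB, higher in both KD libraries (log2 fold change 1.08, SE 0.52, limma adjusted p = 0.277). The linear RNA of ORC4 fell, from 11.9 and 12.5 to 5.08 and 8.22 FPB (-0.81, SE 0.23, adjusted p = 0.00274). A circle with no reads in one control and at least 5 in the other was not rare: it held for 7 of 42 tested members (16.7%) and 17.2% of the other tested circles.

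MCM10, a factor that helps activate the loaded helicase, had 25 circles summing to 0.256, 0.587, 0.834 and 1.48 FPB. Both KD libraries were higher (log2 fold change 1.43, SE 0.57, limma adjusted p = 0.194). The fold change was 0.88 without control 1 (adjusted p = 0.186) and 1.98 without control 2 (adjusted p = 0.00275), and the p was 0.889 without KD 1. Its circle chr10:13172376-13172765, of 390 bases, had 0, 0, 32 and 19 reads. The KD mean of that circle was 3.93 times the limit set by no reads in controls. Linear MCM10 was level, at 14.8, 16.8, 15.6 and 17.2 FPB (0.05, SE 0.25, adjusted p = 0.899).

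Other helicase genes moved in both directions in linear RNA. MCM4, another helicase subunit, rose from 33.9 and 40.8 to 74.8 and 68.1 FPB (0.92, SE 0.26, limma adjusted p = 0.00218). MCM8, a relative that acts in recombination, fell from 9.32 and 10.0 to 3.23 and 4.45 FPB (-1.13, SE 0.22, adjusted p = 1.03e-05). ORC2, another origin recognition subunit, fell with a log2 fold change of -0.73 (adjusted p = 0.00759). Altogether 1 of 8 tested licensing and helicase hosts rose and 3 fell, where 11.3% of all hosts rose and 24.3% fell. The circle of TIMELESS, a component that stabilises forks, spans 1644 bases and measured 0.358, 0.929, 0.568 and 0.543 FPB (-0.06, SE 0.54, adjusted p = 0.963; 0.43 with median centring and 0.49 with edgeR and DESeq2), with the KD values between the controls.

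**Figure D3:**
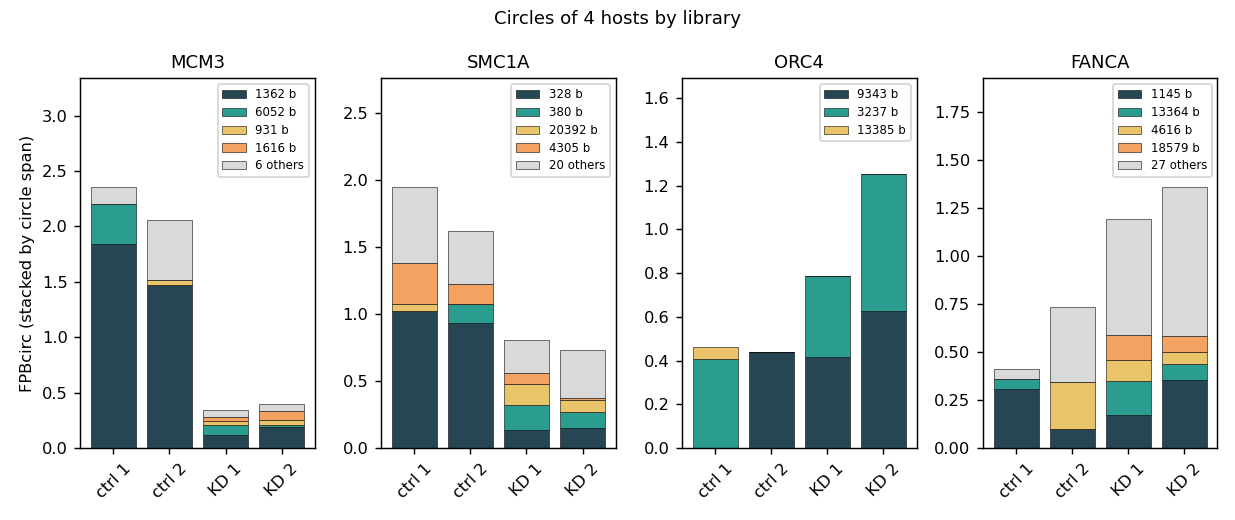
Summed FPBcirc of MCM3, SMC1A, ORC4 and FANCA in each library (vertical axis: FPBcirc), stacked by circle, each circle named by the bases it spans. The MCM3 circle of 1362 bases makes up 78.3% and 71.4% of the control bars and 33.9% and 47.4% of the KD bars, and each ORC4 control bar is made almost wholly of a different circle.

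Among replicative polymerases, POLD1 and POLA1 circles differed in opposite directions without passing. POLD1 encodes the catalytic subunit of the polymerase that makes most of the lagging strand. Its circle chr19:50398851-50399484, of 634 bases, had 8, 0, 189 and 51 reads, or 0.409, 0, 1.14 and 1.06 FPB. Both KD libraries were high and the controls differed from each other, and the test gave 3.19 (SE 1.10, limma adjusted p = 0.188). The circle passed with neither limma nor edgeR, and its adjusted p was 0.0114 with DESeq2. A second circle, which starts 3 bases earlier, had 4, 0, 29 and 5 reads. Summed POLD1 circles measured 0.614, 0, 1.37 and 1.17 FPB (3.11, SE 1.09, adjusted p = 0.152). Without control 1, which leaves a control with 0 reads, the fold change was 5.22, and without control 2 it was 1.00 (adjusted p = 1.08e-12 and 0.140).

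The POLA1 circle chrX:24821452-24843677 had 7, 8, 6 and 1 reads, or 0.358, 0.391, 0.0363 and 0.0209 FPB, with both KD libraries lower (-2.70, SE 1.29, limma adjusted p = 0.287). The longer POLA1 circle with the same end, of 33780 bases, measured 0.869, 0.881, 0.284 and 0.209 FPB (-1.71, SE 0.47, adjusted p = 0.130). All 49 POLA1 circles summed to 1.74, 2.69, 1.13 and 1.17 FPB (-0.89, SE 0.40, adjusted p = 0.252). The linear RNA of POLA1 fell, from 22.4 and 20.9 to 10.2 and 11.4 FPB (-0.94, SE 0.25, adjusted p = 0.00102).

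LIG1, the ligase that joins lagging-strand fragments, rose in linear RNA from 9.36 and 11.9 to 22.4 and 19.1 FPB (0.90, SE 0.24, limma adjusted p = 0.00152), and the rise did not pass without control 1. Its 9 circles measured 0.256, 0.196, 0.151 and 0.209 FPB (-0.28, SE 0.91, adjusted p = 0.894). POLE2, an accessory subunit of the leading-strand polymerase, fell in linear RNA with a log2 fold change of -0.55 (adjusted p = 0.0253).

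**Figure D4:**
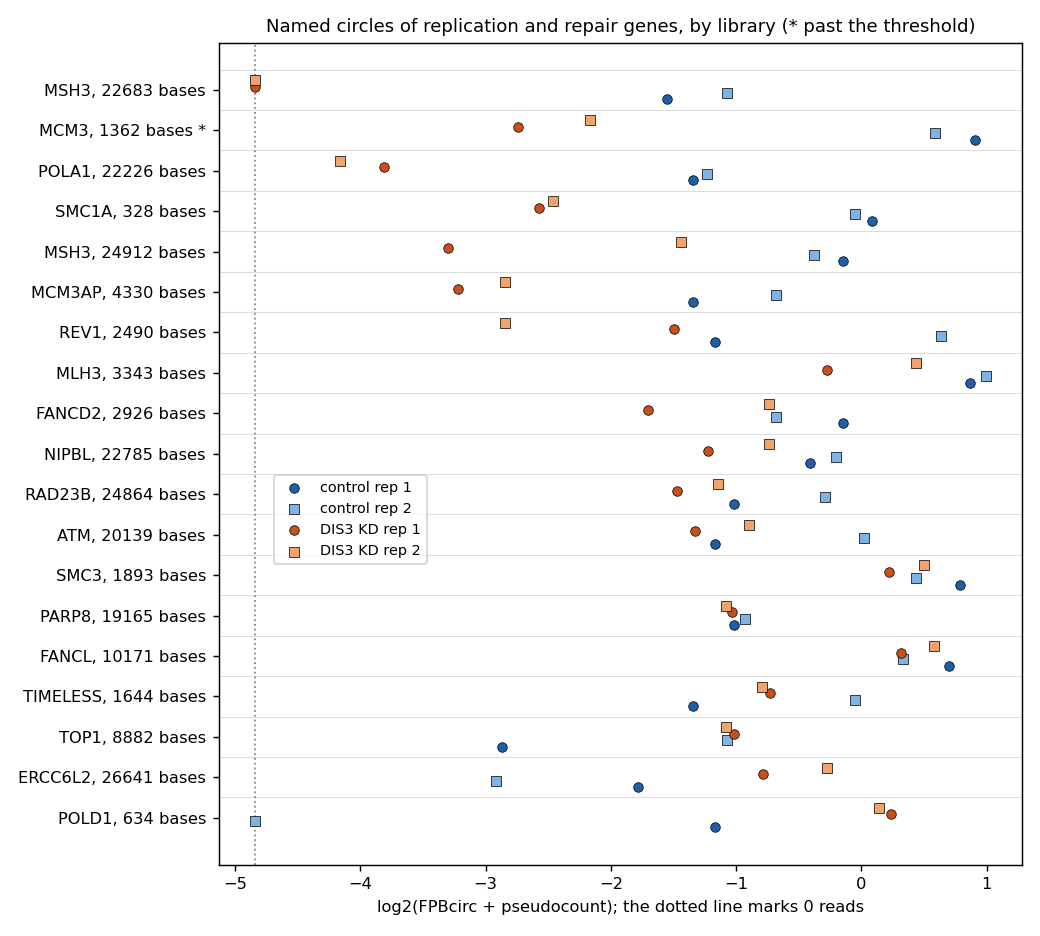
Abundance of 19 member circles chosen by the naming rule (horizontal axis: log2 of FPBcirc + pseudocount) in 2 control and 2 KD libraries, 1 point per library, with a dotted line at 0 reads. The MCM3 circle, the one marked as past the threshold, has controls of 1.84 and 1.47 FPB and KD values of 0.115 and 0.188 FPB, while the FANCL and SMC3 circles overlap between groups.

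Among cohesin and SMC genes, linear RNA fell for 6 of 10 tested hosts and rose for none with limma, where 24.3% of all hosts fell and 11.3% rose. No host was higher at an unadjusted p under 0.05, and both KD libraries lay below both controls for all 10, against 45.1% of all hosts. Of the 6, SMC4 and SMC6 passed without each library in turn. SMC4, of the condensin complex that compacts chromosomes, fell from 31.5 and 28.5 to 9.20 and 13.3 FPB (-1.34, SE 0.25, adjusted p = 2.6e-06). SMC6, of the SMC5/6 complex that acts at stalled forks, fell from 10.7 and 11.3 to 3.39 and 5.41 FPB (-1.15, SE 0.23, adjusted p = 7.39e-06). STAG2 and STAG1, alternative cohesin subunits, fell with log2 fold changes of -0.75 (adjusted p = 0.0154) and -0.63 (adjusted p = 0.00872).

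Summed cohesin circles lay below both controls in both KD libraries for 5 of 9 tested hosts and above for none, against 30.1% and 21.2% of all hosts. None passed with limma, edgeR or DESeq2, and 4 were lower with limma at an unadjusted p under 0.05, against 11.7% of all hosts. The most abundant circle of SMC1A, a core cohesin subunit, is chrX:53403566-53403893, of 328 bases, and measured 1.02, 0.929, 0.133 and 0.146 FPB (20, 19, 22 and 7 reads). The groups were far apart, 0.976 ± 0.0660 against 0.140 ± 0.00929 FPB (SD, n = 2), 7.0-fold lower in KD, and the test gave -2.53 (SE 0.50, limma adjusted p = 0.0713; 0.0242 with DESeq2, and from 0.00397 to 0.614 without each library in turn). It made up 52.6% and 57.6% of SMC1A circle signal in controls and 16.5% and 20.0% in KD. A neighbouring circle of 380 bases had 0, 3, 31 and 6 reads, and one of 20392 bases had 1, 0, 26 and 4. All 24 SMC1A circles summed to 1.94, 1.61, 0.804 and 0.730 FPB (-1.17, SE 0.42, adjusted p = 0.141), and linear SMC1A measured 122, 164, 94.6 and 104 FPB (-0.50, SE 0.24, adjusted p = 0.0940).

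The single abundant circle of SMC3, the partner of SMC1A in the ring, spans 1893 bases and did not separate the groups, at 1.69, 1.32, 1.13 and 1.38 FPB (-0.25, SE 0.35, limma adjusted p = 0.698). Its sign turned under 3 other scalings, to 0.24 with library median centring, 0.40 with edgeR and 0.39 with DESeq2. Linear SMC3 fell, from 29.6 and 30.5 to 14.3 and 21.5 FPB (-0.74, SE 0.26, adjusted p = 0.0158). The circle of NIPBL, the cohesin loader, spans 22785 bases and measured 0.716, 0.832, 0.393 and 0.564 FPB (-0.67, SE 0.43, adjusted p = 0.400). STAG2 circles summed to 1.18, 0.783, 0.260 and 0.334 FPB (-1.59, SE 0.56, adjusted p = 0.139; 0.109 without control 1, 0.00952 without control 2 and 0.889 without KD 1). The 38 PDS5A circles overlapped between groups, at 1.79, 0.636, 0.580 and 1.06 FPB (-0.43, SE 0.55, adjusted p = 0.700), and the sign turned to 0.29 without control 1 against -1.15 without control 2.

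Fanconi and recombination genes held both the clearest linear rise and several lower circles. FANCA, a subunit of the Fanconi core complex, rose in linear RNA from 7.83 and 8.04 to 19.5 and 16.9 FPB (7.94 ± 0.149 to 18.2 ± 1.83, SD, n = 2; 1.09, SE 0.24, limma adjusted p = 6.76e-05). The rise passed without any single library. FANCA circles summed to 0.409, 0.734, 1.19 and 1.36 FPB over 31 circles, higher in both KD libraries (1.16, SE 0.49, adjusted p = 0.223). The fold change was 0.76 without control 1 (adjusted p = 0.253) and 1.56 without control 2 (adjusted p = 0.0172). Its most abundant circle, of 1145 bases, measured 0.307, 0.0978, 0.169 and 0.355 FPB and overlapped between groups, while circles of 18579 and 8661 bases had 0, 0, 21 and 4 reads and 0, 0, 19 and 4 reads.

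FANCB, another core complex subunit, went the other way. Its 10 circles summed to 1.69, 2.49, 0.586 and 0.689 FPB, or 2.09 ± 0.571 against 0.637 ± 0.0725 (SD, n = 2), with both KD libraries lower (-1.64, SE 0.43, limma adjusted p = 0.0512; 0.00613 with DESeq2). Without control 1 the adjusted p was 0.00132, and without KD 1 it was 0.799. Linear FANCB fell, from 4.51 and 4.37 to 1.93 and 2.62 FPB (-0.71, SE 0.20, adjusted p = 0.00172). FANCM, the translocase that anchors the core complex, fell in linear RNA with a log2 fold change of -0.47 (adjusted p = 0.00872). The sole circle of FANCL, the ubiquitin ligase of the complex, spans 10171 bases and was among the most abundant members, at 1.59, 1.22, 1.21 and 1.46 FPB. It overlapped between groups (-0.07, SE 0.35, adjusted p = 0.934), and its sign turned to 0.43 with library median centring, 0.59 with edgeR and 0.58 with DESeq2.

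The FANCD2 circle of 2926 bases, from the protein that FANCL modifies, measured 0.869, 0.587, 0.272 and 0.564 FPB, lower in both KD libraries (-0.81, SE 0.52, limma adjusted p = 0.403). The 46 circles of BRIP1, a helicase that binds BRCA1, summed to 4.09, 1.91, 1.77 and 2.44 FPB, with control 1 high and the rest close together (-0.42, SE 0.40, adjusted p = 0.590; 0.12 without control 1 and -0.96 without control 2). Circles of BLM, the Bloom syndrome helicase, had 13, 5, 13 and 0 reads (-2.81, SE 1.43, adjusted p = 0.299). RAD52, an annealing factor of recombination, had 9 circles with 0, 0, 36 and 23 reads, or 0, 0, 0.218 and 0.480 FPB. Its KD mean was 4.65 times the limit set by no reads in controls, which covers counting error only. RAD52 and POLL were the 2 hosts, of the 28 read only in KD, whose KD mean was over 3 times that limit. Both were singled out after their values were seen, and the share of all hosts past the limit is not given here.

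Among checkpoint genes, ATM circles were lower in KD. The 47 circles of this kinase gene summed to 2.66, 2.45, 0.955 and 1.36 FPB, or 2.55 ± 0.151 against 1.16 ± 0.284 (SD, n = 2), without overlap (-1.14, SE 0.38, limma adjusted p = 0.122). Its most abundant circle, of 20139 bases, measured 0.409, 0.978, 0.363 and 0.501 FPB and overlapped (-0.54, SE 0.55, adjusted p = 0.592). Linear ATM measured 5.70, 4.92, 3.01 and 4.04 FPB (-0.47, SE 0.21, adjusted p = 0.0670). RAD18, a ubiquitin ligase that calls in translesion polymerases, had 5 circles summing to 1.43, 1.22, 0.520 and 0.668 FPB (-1.12, SE 0.46, adjusted p = 0.214). RAD17, which loads the checkpoint clamp, fell in linear RNA with a log2 fold change of -0.46 (adjusted p = 0.0245).

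Mismatch repair was represented by abundant circles of MLH3 and MSH3. The MLH3 circle of 3343 bases was the most abundant tested member in control 2, and in control 1 it came just behind that of MCM3, at 1.79, 1.96, 0.792 and 1.31 FPB. It was lower in both KD libraries (-0.85, SE 0.38, limma adjusted p = 0.273). The linear RNA of MLH3, a mismatch repair factor, measured 7.30, 8.30, 5.81 and 6.20 FPB (-0.32, SE 0.22, adjusted p = 0.264).

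MSH3, which recognises small insertion and deletion loops, had 27 circles. Its circle chr5:80656411-80679093, of 22683 bases, had 6, 9, 0 and 0 reads (limma adjusted p = 0.286). The control mean of that circle was 26.6 times the limit of 0.0141 FPB that no reads over both KD libraries allow. The circle was named for its fall and reached the abundance needed for testing through the controls alone, so that ratio is a description. Of the 1153 members, 7 were read in both controls and in no KD library, against 156 of all 45182 circles. The circle of 24912 bases, chr5:80767933-80792844, measured 0.869, 0.734, 0.0665 and 0.334 FPB (-2.11, SE 0.71, adjusted p = 0.180). A circle with the same end, of 17151 bases, was one of the 765 members read only in KD, with 0, 0, 29 and 13 reads. All 27 MSH3 circles summed to 2.3, 2.59, 0.864 and 1.52 FPB (-1.07, SE 0.40, adjusted p = 0.168). Linear MSH3 fell, from 7.87 and 8.37 to 2.82 and 4.07 FPB (-1.02, SE 0.22, adjusted p = 4.94e-05), and it passed without any single library.

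Excision repair and end-joining genes differed in both directions. XRCC4, the scaffold of the end-joining ligase, had the lowest linear fold change of any member, from 8.20 and 8.70 to 1.93 and 2.61 FPB (8.45 ± 0.351 to 2.27 ± 0.474, SD, n = 2; -1.49, SE 0.21, limma adjusted p = 3.4e-10). Its 5 circles had 10, 6, 9 and 3 reads, or 0.511, 0.294, 0.0544 and 0.0626 FPB, lower in both KD libraries (-2.18, SE 1.12, adjusted p = 0.308). XRCC5, the larger Ku subunit that binds broken ends, fell in linear RNA from 122 and 122 to 51.3 and 64.4 FPB (-1.07, SE 0.25, adjusted p = 0.000197). Its circles went in the other direction without passing, at 2, 2, 50 and 28 reads or 0.102, 0.0978, 0.302 and 0.584 FPB (1.76, SE 0.87, adjusted p = 0.290).

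ERCC6L2, a helicase-like relative of ERCC6, gave the other of the 2 tested circles that were higher in both KD libraries, beside POLD1. Its circle of 26641 bases measured 0.256, 0.0978, 0.544 and 0.793 FPB (5, 2, 90 and 38 reads; 1.82, SE 0.63, limma adjusted p = 0.189; 0.0273 with DESeq2, and from 0.00457 to 0.795 without each library in turn). Its 17 circles summed to 0.409, 0.342, 0.737 and 1.31 FPB (1.32, SE 0.55, adjusted p = 0.214; 0.0301 without control 1, 0.0878 without control 2 and 0.889 without KD 1), while linear ERCC6L2 measured 3.27, 3.62, 2.58 and 3.17 FPB (-0.19, SE 0.19, adjusted p = 0.450). LIG3, a ligase of single-strand break repair, rose in linear RNA from 9.99 and 13.1 to 17.8 and 18.4 FPB (0.61, SE 0.24, adjusted p = 0.0381), a rise that did not pass without control 1 or without control 2. The RAD23B circle of 24864 bases, from a lesion recognition partner, measured 0.460, 0.783, 0.326 and 0.417 FPB (-0.65, SE 0.50, adjusted p = 0.474), and a RAD23B circle of 6507 bases had 0, 0, 19 and 17 reads.

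Of 4 translesion polymerase hosts tested in linear RNA, 1 fell and none rose, where 24.3% of all hosts fell and 11.3% rose. Neither the 1 circle tested nor any of 4 summed hosts passed. Of all circles 0.453% fell and 0.0824% rose, and of all summed hosts 2.17% and 1.38%. The circle of REV1, a scaffold for the translesion polymerases, measured 0.409, 1.52, 0.320 and 0.104 FPB (8, 31, 53 and 5 reads), where control 2 was by far the highest (-1.90, SE 0.77, limma adjusted p = 0.243). REV3L, the catalytic subunit of polymerase zeta, fell in linear RNA from 4.89 and 4.20 to 2.29 and 2.84 FPB (-0.62, SE 0.20, adjusted p = 0.00868). The 41 POLQ circles overlapped, at 0.614, 0.832, 0.762 and 1.15 FPB (0.37, SE 0.49, adjusted p = 0.705). POLL, a gap-filling polymerase of end joining, had 0, 0, 52 and 9 reads over 3 circles. Its KD mean was 3.35 times the limit set by no reads in controls.

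Of 3 topoisomerase genes tested in linear RNA, 2 fell, where 24.3% of all hosts fell. TOP1, which relaxes DNA by single-strand cuts, fell from 43.5 and 45.9 to 18.8 and 25.8 FPB (-0.98, SE 0.26, limma adjusted p = 0.00114), and TOP2A, which passes one duplex through another, had a log2 fold change of -0.69 (adjusted p = 0.0244). The rise or fall of TOP1 circles could not be called: the circle of 8882 bases measured 0.102, 0.440, 0.459 and 0.438 FPB (0.92, SE 0.73, adjusted p = 0.491). TOP3A, which works with BLM, had circles at 1, 3, 60 and 23 reads, or 0.0511, 0.147, 0.363 and 0.480 FPB (1.86, SE 0.92, adjusted p = 0.292).

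The plot of summed circles and linear RNA by host sets the 2 changes side by side for the 47 hosts tested in both. MCM3 was the single host whose summed circles passed, and its linear RNA did not. For the 4 hosts whose linear RNA rose, the log2 fold changes of summed circles and linear RNA were 1.16 and 1.09 in FANCA, 1.02 and 0.92 in MCM4, -0.28 and 0.90 in LIG1, and -0.92 and 0.61 in LIG3. For the 6 whose fall was kept without each library in turn, they were -2.18 and -1.49 in XRCC4, -1.46 and -1.34 in SMC4, -1.41 and -1.15 in SMC6, -0.85 and -1.13 in MCM8, 1.76 and -1.07 in XRCC5, and -1.07 and -1.02 in MSH3.

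**Figure D5:**
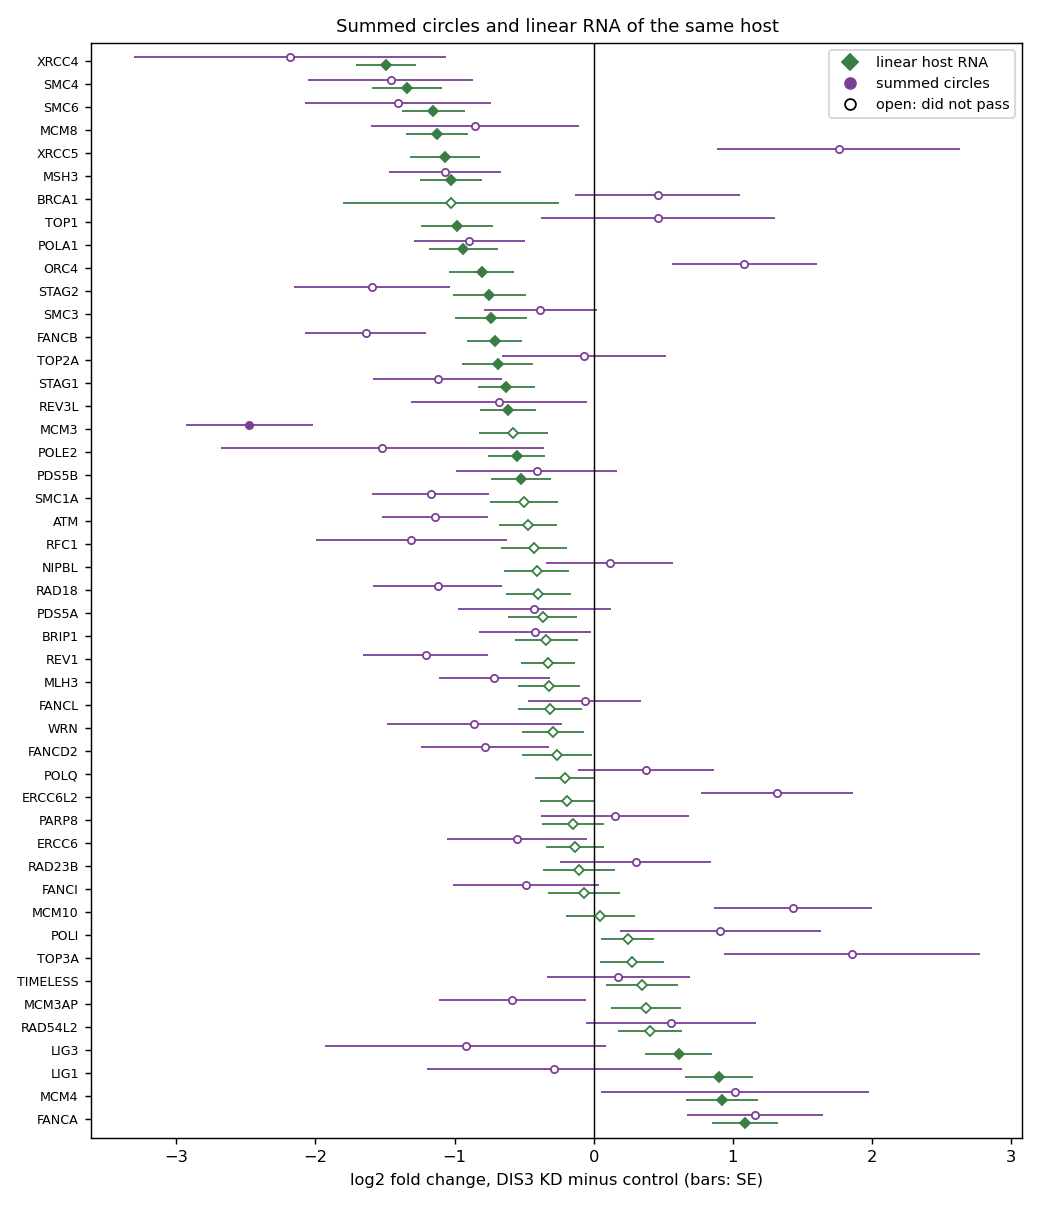
Change of summed circles (circles) and of linear RNA (diamonds) for the 47 member hosts tested in both, 1 row per host, with bars of 1 SE (horizontal axis: log2 fold change of summed FPBcirc or of FPBlinear, KD relative to control) and filled symbols where a test passed. MCM3 has -2.48 for circles and -0.58 for linear RNA, FANCA 1.16 and 1.09, and XRCC5 1.76 and -1.07.

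CIRCscore, the circle relative to its linear host, passed for no member. The ERCC6L2 circle had 0.0809, 0.0297, 0.214 and 0.253, with both KD libraries higher (2.13, SE 0.56, limma adjusted p = 0.160). The MCM3 circle had 0.0187, 0.0128, 0.00175 and 0.00278, lower in both KD libraries (-1.57, SE 0.34, adjusted p = 0.142). The circle of MCM3AP, a separate gene whose symbol begins with that of MCM3, had 0.0254, 0.0314, 0.00358 and 0.00548 (-1.87, SE 0.40, adjusted p = 0.142).

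The 4 smallest p-values in each direction also took in POLA1 (0.0165, 0.0192, 0.00454 and 0.00272; -1.46, adjusted p = 0.144) and SMC1A (0.00849, 0.00573, 0.00151 and 0.00149; -0.94, adjusted p = 0.160), both lower in KD. On the higher side they took in TOP1 (0.00258, 0.00980, 0.0250 and 0.0174; 1.34, adjusted p = 0.208), SMC3 (0.0572, 0.0436, 0.0797 and 0.0646; 0.48, adjusted p = 0.556) and TOP2A (0.00620, 0.00196, 0.00661 and 0.00693; 0.44, adjusted p = 0.496). Lower scores of ERCC6 (-1.47, adjusted p = 0.192) and RAD18 (-1.20, adjusted p = 0.215) had smaller p-values than those of SMC3 and TOP2A. When at least 5 reads were required in every library, 3 CIRCscores of members passed as lower and none as higher. At that setting 1144 circles were tested, with a median log2 fold change of -0.53. The share of all circles that passed there is not given here.

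Altogether 10 hosts were set apart as matching the letters of the rule: MCM3AP, RAD54L2, PARP4, PARP6, PARP8, PARP11, PARP12, PARP14, PARP16 and TOP1MT. Whether any of these hosts acts in replication or repair was not examined. They held 84 circles, summing to 1.59, 2.64, 2.33 and 2.32 FPB. The MCM3AP circle of 4330 bases measured 0.358, 0.587, 0.0725 and 0.104 FPB (-2.01, SE 0.72, limma adjusted p = 0.195), and the PARP8 circle of 19165 bases 0.460, 0.489, 0.453 and 0.438 FPB (-0.08, SE 0.46, adjusted p = 0.937; 0.41 with median centring, 0.61 with edgeR and 0.60 with DESeq2). Among them 2 circles, 3 summed hosts, 3 linear RNAs and 2 CIRCscores were tested, and no limma test passed. In linear RNA 24.3% of all hosts fell and 11.3% rose. At an unadjusted p under 0.05 only the MCM3AP circle and its CIRCscore were lower, against 14.0% of all circles and 17.9% of all CIRCscores.

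A wider list of 148 other replication and repair genes, 120 of them hosts in the tables, was counted too. Linear RNA fell for 19 and rose for 2 of 49 tested, where 24.3% of all hosts fell and 11.3% rose, with a median log2 fold change of -0.41. The rises were SPIDR, a recombination scaffold, and RECQL4, a helicase. Of 46 hosts tested for summed circles, 1 rose and 2 fell, where 1.38% of all hosts rose and 2.17% fell. Summed circles rose for CHAF1A, a subunit of the chromatin assembly factor that follows the fork, at 0, 1, 197 and 64 reads (log2 fold change 4.58, SE 0.84, limma adjusted p = 0.00939). In FPB these were 0, 0.0489, 1.19 and 1.34, so CHAF1A could be tested through its KD values alone. With 1 control read, the size of its change rests on the pseudocount. Summed circles fell for USP1, the enzyme that removes ubiquitin from FANCD2 (1.69, 1.52, 0.242 and 0.397 FPB; -2.24, adjusted p = 0.0301), and for the mismatch repair gene PMS1 (1.23, 2.35, 0.230 and 0.501 FPB; -2.20, adjusted p = 0.0396). How the calls of this list held without single libraries is not given here.

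A list of 71 proliferation genes, 63 of them hosts, was counted in the same way. Linear RNA fell for 12 and rose for 1 of 31 tested, where 24.3% of all hosts fell and 11.3% rose, with a median log2 fold change of -0.51, below the medians of -0.41 in members and -0.17 over all hosts. The riser was MYBL2, a cell-cycle transcription factor, at 119, 144, 214 and 202 FPB (0.66, SE 0.24, limma adjusted p = 0.0189), whose summed circles also rose, from 0.869 and 0.929 to 2.87 and 2.73 FPB (1.60, SE 0.38, adjusted p = 0.0345). Of 27 hosts of this list tested for summed circles, 1 rose and none fell, where 1.38% of all hosts rose and 2.17% fell. The part of proliferation in the values of replication and repair genes was not tested.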

How the data were processed

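The analysis used 2 tables of the whole series, with 2 control and 2 DIS3 KD libraries. Per the file headers, the authors deposited FPBcirc, a signal in backsplice fragments per gigabase mapped, and CIRCscore, a ratio of circular to linear signal. The submitters' processing notes name Bowtie2 2.3.5, bcl2fastq 2.20 and the build hg38. The circRNA caller, its filters and any use of strand are not given in the sources used here, so reads of antisense genes cannot be told apart. Of the rows, 7 were empty and not used here.

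FPBcirc values were whole multiples of 1 read in 100% of cases (tolerance 0.001), which gave reads and depth (19.6 to 165 gigabases mapped). The linear signal was (FPBcirc + 0.01) / CIRCscore - 0.01, and it exists only in libraries where a circle of the host was read, so 53 of 112 member hosts could be tested. limma 3.58.1 in R 4.3.3, with trend and robust moderation, was fitted to log2(value + pseudocount) of all features, without a replicate block. Pseudocounts were 0.0349 FPB for circles, 1.16 FPB for linear RNA and 0.00448 for CIRCscore. Circles and summed hosts needed a mean of 0.174 FPB, 5 reads' worth, and CIRCscores a value in every library. Fold changes understate those of low features. Adjusted p-values are Benjamini-Hochberg over all features. The code was tested on simulated data. Alternatives were counts recovered as reads in DESeq2 1.42.0 and edgeR 4.0.16, other pseudocounts, filters and scalings, thinning to equal depth, a replicate block and leaving out each library.

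The members and gene lists were chosen with earlier results of these data known. Named were circles past the threshold, the 10 most abundant tested, the 6 with the largest rise and fall among those without overlap, the most abundant per functional group, up to 10 linear calls per direction, the 4 smallest p-values per direction for summed circles and CIRCscore, and the 5 hosts with most circles. Others were named after their values were seen, by the tests they passed or as examples of their functional group. Promoters came from RefSeq (GRCh38.p14), which held a window for 98 member hosts.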

Additional observations from a re-analysis of the deposited data

How the results depend on the processing

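The counts of calls among circles were unstable. Rising circles, 0 as reported, were 1 with a replicate block, 1 with a filter of 10 reads' worth, 1 with no filter, 2 with DESeq2 and 0 to 4 without each replicate. Falling circles, 1 as reported, were 2 with the block, 4 with the filter of 10, 2 with DESeq2, 0 with median centring, without trend or robust moderation, with a filter of 2, with edgeR and at equal depth, and 0 to 14 without each replicate. For summed circles, rises (0) were 1 with the block, 1 with the filter of 10 and 0 to 6 without each replicate. Falls (1) were 3 with the block, 2 with 0.25 or 4 times the pseudocount, 2 with the filter of 10, 2 with DESeq2, 0 without moderation, 0 with the filter of 2, 0 with no filter, and 0 to 9 without each replicate. Linear rises (4) were 9 with median centring and 1 to 4 without each replicate, and linear falls (20) 7 to 31. CIRCscore rises (0) were 0 to 2 and falls (0) 0 to 5 without each replicate, and 3 falls passed with at least 5 reads in every library. Shares of all features that passed at these settings are not given here, so the counts describe members alone. The cause of the instability was not tested.

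Direction turned for 5 named circles: SMC3 (-0.25; 0.24 centred, 0.40 edgeR, 0.39 DESeq2), FANCL (-0.07; 0.43, 0.59, 0.58, and 0.12 without control 1 and 0.07 without KD 1), TIMELESS (-0.06; 0.43, 0.49, 0.49, 0.085 at equal depth and -0.71 to 0.59 without each replicate), ATM (-0.54; -1.13 to 0.056 without each replicate) and PARP8 (-0.08; 0.41, 0.61, 0.60). It also turned for the summed circles of PDS5A (-0.43; -1.15 to 0.29) and BRIP1 (-0.42; -0.96 to 0.12) without each replicate. No named linear host turned. Replicate numbers did not pair the samples: deviations of same-numbered libraries correlated at 0.0029 for circles, -0.0026 for summed circles and 0.065 for linear RNA. With the replicate block 26 linear falls and 4 rises passed. Having 2 libraries a group, and control depths under those of KD, limit every circle result.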

Other observations

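Linear BRCA1 lay below both controls in each KD library, and the KD libraries differed widely, at 14.1 and 15.4 FPB in controls, 3.16 FPB in KD 1 and 13.0 FPB in KD 2 (limma adjusted p = 0.423 for a log2 fold change of -1.02, SE 0.78). BRCA1 circles measured 0.307, 0.587, 0.520 and 0.689 FPB over the same libraries (0.46, SE 0.59, adjusted p = 0.700).

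Few members held annotated miRNA genes within their span. The MIR15B and MIR16-2 genes lie inside the span of 2 SMC4 circles, which had 2, 1, 0 and 0 reads. MIR6857 lies inside 10 SMC1A circles, which had 1, 2, 44 and 10 reads. The spans include introns, and whether the circles keep them was not determined.

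A further cohesin circle, of PDS5B and 3230 bases long in the genome, had 0, 0, 23 and 15 reads. Its KD mean was 3.01 times the limit set by no reads in controls. With those of MCM10 and RAD23B this circle made 3 of 1153 members (0.260%) over 3 times that limit, against 0.376% of all circles.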
